A study of Saccharomyces cerevisiae with 23 samples.

Results

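The G1 cyclins and the regulators of Start, the point at which budding yeast commits to a mitotic cycle, were followed through a synchronised meiosis. The 9 genes were taken by their symbols: the cyclins CLN1, CLN2 and CLN3, the Pho85 cyclins PCL1 and PCL2, the inhibitor WHI5, and the transcription factor subunits SWI4, SWI6 and MBP1. They are 9 of 6867 gene rows, and all 9 averaged 1 FPKM or more over the libraries, the condition for the 6560 genes tested. All 23 RNA-seq libraries came from 1 strain, labelled A 33606, in which copper-responsive CUP1 promoters drive IME1 and IME4 (pCUP1-IME1 pCUP1-IME4). Cells pregrown in YPD and BYTA media were shifted to SPO medium, the sporulation medium, and copper sulphate, given as 25 mM, was added at 2 h. Each time has 1 library, grouped here as 0 h, 2 h, 2.25 to 3 h (4 libraries), 3.25 to 4.5 h (6 libraries), 4.75 to 6 h (6 libraries) and 6.5 to 10 h (5 libraries). The labels do not say whether the 2 h library was taken before or after the copper, and no uninduced culture past 2 h was analysed here. Copper and time in SPO medium therefore cannot be told apart.

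In mitotic growth the cyclin Cln3, bound to the kinase Cdc28, acts first at Start by relieving the hold of Whi5 on the factor SBF, which is made of Swi4 and Swi6. SBF then switches on CLN1, CLN2, PCL1, PCL2 and cell wall genes, while the sister factor MBF, made of Mbp1 and Swi6, drives genes of DNA replication. In meiosis the G1 cyclins are known as antagonists of entry that keep IME1 low, and the kinase Ime2 takes on part of the work that G1 cyclins with Cdc28 do in mitosis.

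The values are FPKM, the authors' density of fragments per unit of gene length and of library depth, so levels can be compared between genes. The median tested gene had 2.55 FPKM in the lowest library (7.5 h) and 19.5 FPKM in the highest (4.75 h). For the tests each library was therefore divided by a size factor, between 0.253 and 1.80, that evens out the typical gene, and the result is called scaled FPKM. A change is a difference of means of log2(scaled FPKM + 1), which understates changes of low genes. It was called where limma's adjusted p was under 0.05 and the change at least 1. The scaling weighs on the last window: the median change of all tested genes in 6.5 to 10 h against 4.75 to 6 h was -0.06 on scaled and -0.99 on deposited FPKM, so late results are given on both. The libraries of a window are consecutive times, and the labels name no separate cultures, so a mean ± SD or a p-value measures the spread between times, not between cultures. Markers of the course were read first. IME1, the master activator of meiotic entry, averaged 6111 FPKM in the 2.25 to 3 h libraries, against 818 FPKM at 2 h. IME2, the early kinase, averaged 351 FPKM at 2.25 to 3 h, against 3.44 FPKM at 2 h. NDT80, the activator of the middle genes, averaged 183 FPKM at 4.75 to 6 h, against 9.89 FPKM at 3.25 to 4.5 h.

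Depth differed widely among the 9 genes. The authors' confidence bounds imply between 104 and 1295 fragments on SWI4 in a library, between 71.5 and 360 on SWI6 and between 66.1 and 184 on MBP1. CLN3 rested on between 8 and 225 fragments and WHI5 on between 3.52 and 46.0. CLN1, CLN2, PCL1 and PCL2 each came down to 1 fragment in their lowest library, with at most 124, 61.1, 33.4 and 45.8 fragments in their highest. Values of these cyclins near 1 FPKM are therefore at the limit of what the depth can show. The bounds were taken to cover counting error only, and their level is not stated in the sources. Of 176 member values with up to 200 implied fragments, 90 lay within 0.05 of a whole number, so fragment numbers are approximate. Of the 9 genes, only WHI5 shares sequence with another row, as 11.8% of its length overlaps YOR082C, and whether the counting used strand is not stated in the sources.

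The 600 bases before the start codon of 8 of the 9 genes, all but SWI4, were searched on both strands for 4 motifs, because SBF acts on several of these genes. The motifs were the SBF element SCB (CACGAAA) and its looser form (CNCGAAA, which includes it), the MBF element MCB (ACGCGT) and the Ume6 element URS1 (GGCGGC). Of 5999 such windows in the genome, 8.33% held an SCB, 24.7% the looser form, 6.33% an MCB and 11.4% a URS1. CLN2 held 2 SCBs, a number that 0.417% of windows reach, and PCL1 and PCL2 held 1 each. CLN1 and PCL2 held 2 of the looser form and PCL1 held 4, while 3.48% of windows hold 2 or more. SWI6 held 1 URS1, and none of the 8 windows held an MCB. None of the 4 strings was present in the windows of CLN3, WHI5 and MBP1. The stretches below come from the RefSeq R64 genome, the build of the files, on the gene's own strand, with matches of either orientation in capitals. They are shown because they hold the matches of 3 cyclins that SBF is known to drive.
CLN1, chrXIII:662182-662225, plus strand: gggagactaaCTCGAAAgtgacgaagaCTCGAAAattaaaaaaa
CLN2, chrXVI:67136-67205, minus strand: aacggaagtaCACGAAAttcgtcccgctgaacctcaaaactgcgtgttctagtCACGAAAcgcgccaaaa
PCL1, chrXIV:87560-87648, plus strand: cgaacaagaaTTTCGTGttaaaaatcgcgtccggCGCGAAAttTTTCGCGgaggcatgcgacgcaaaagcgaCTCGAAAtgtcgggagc

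**Figure D1:**
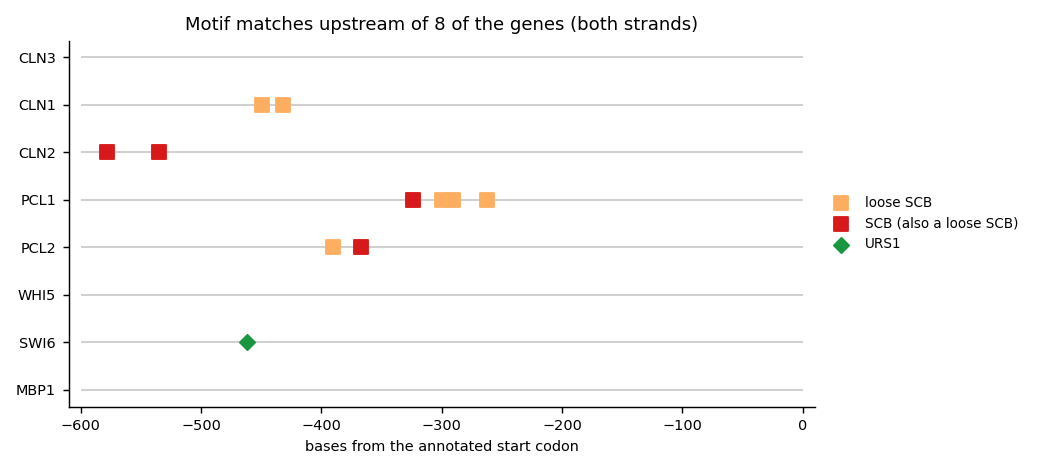
Positions of the motif matches in the 600 bases before the start codon of 8 genes, in bases from the start codon, with 1 symbol per match on either strand. The 3 genes CLN3, WHI5 and MBP1 have no match, and the matches of the others lie between 581 and 259 bases before the start.

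The 9 genes took different courses. CLN3, CLN1 and PCL1 had their highest values at 0 or 2 h and stood below the 2 h level for the rest of the course, while WHI5 stood above it in all 21 later libraries. SWI4, the SBF subunit that binds DNA, had 11.95 FPKM at 10 h, against between 57.9 and 108.5 FPKM from 2.25 to 5.75 h. SWI6 had its highest value at 2 h, and MBP1 stayed between 8.98 and 21.2 FPKM in all 23 libraries. By mean deposited FPKM the order in the 2.25 to 3 h window was SWI4, SWI6, PCL2, MBP1, WHI5, CLN3, CLN2, PCL1 and CLN1. By mean, SWI4 led and SWI6 was second in each of the 4 windows, with CLN1 last. At 6.5 to 10 h this order was not clear. SWI4 at 26.07 ± 16.56 FPKM and SWI6 at 19.25 ± 6.69 FPKM (SD, n = 5 each) overlapped, and so did PCL2 and CLN1 at the low end. At 10 h SWI4 was below SWI6, which had 16.4 FPKM. From PCL2 down, neighbours in the 2.25 to 3 h order differed by less than the larger of their SDs, as with PCL2 at 12.4 ± 7.63 FPKM and MBP1 at 11.4 ± 1.84 FPKM (SD, n = 4 consecutive libraries). The exception was CLN3 at 7.45 ± 2.02 FPKM and CLN2 at 5.16 ± 1.13 FPKM (SD, n = 4 each), whose libraries nevertheless overlap. At 2 h SWI6 (47.2 FPKM), CLN3 (31.2 FPKM) and CLN1 (24.7 FPKM) led.

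**Figure D2:**
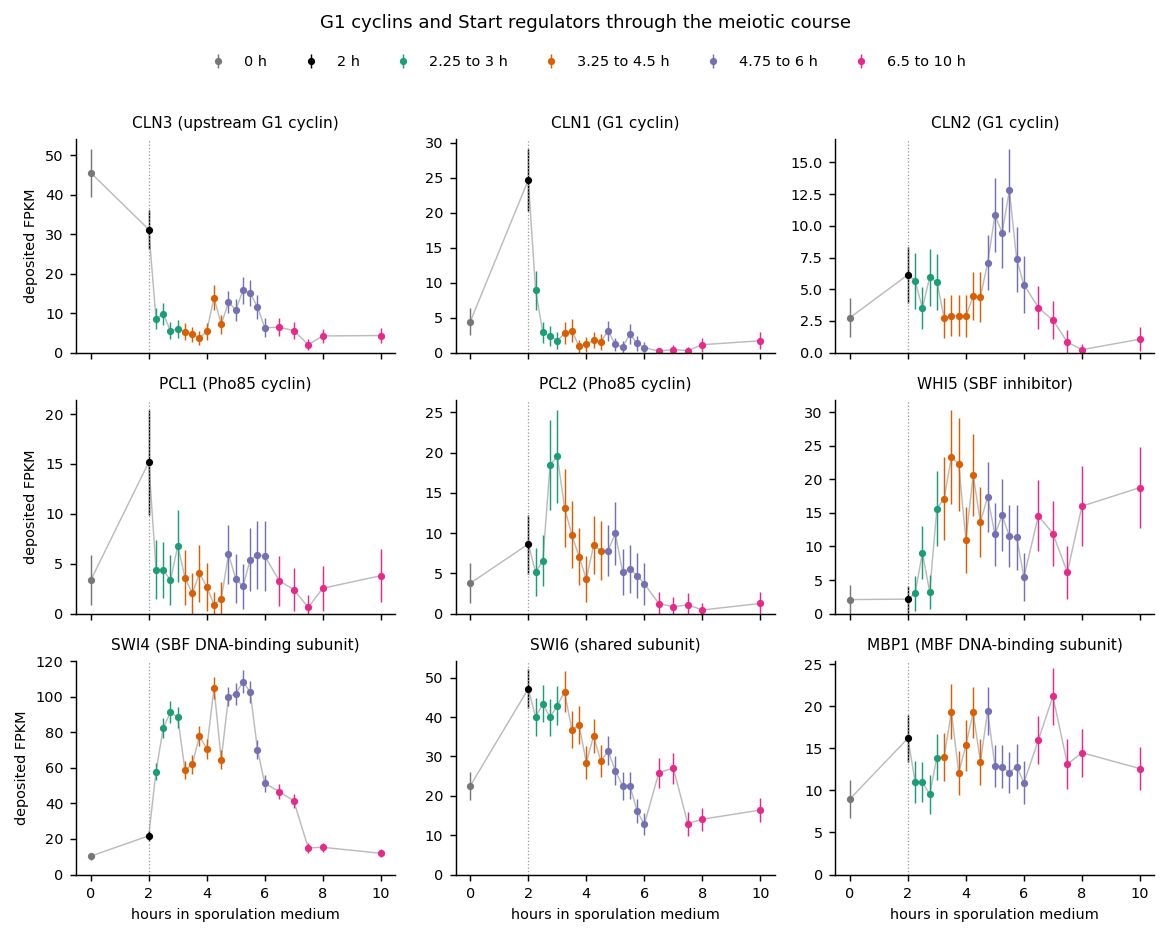
Deposited FPKM of the 9 genes against hours in sporulation medium, 1 point per library with the authors' confidence bounds, coloured by window; the dotted line marks the copper addition at 2 h, and each panel has its own axis from 0. CLN1 has at most 8.90 FPKM after 2 h, against 24.7 FPKM at 2 h, while SWI4 has 91.3 FPKM at 2.75 h, against 21.8 FPKM at 2 h.

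Over the course from 2 h, all 9 genes passed the spline test of limma, 2 as a rise (WHI5 and MBP1) and 7 as a fall. Most genes did so, since 38.1% of the genes tested were called as a rise and 39.9% as a fall, so the count says little about these 9. A rise or a fall is named by the larger departure of the fitted curve from its 2 h value. On deposited FPKM the calls of MBP1 (adjusted p = 0.907) and PCL1 (adjusted p = 0.102) were lost. The fitted range was 3.19 for WHI5, with its top at 8.85 h, and 3.10 for CLN1, with its top at 2 h. SWI4 had a fitted range of 2.62, with its top at 3.5 h and its low at 10 h. Without the 10 h library its curve counted as a rise of 1.34 (limma adjusted p = 0.0182), so its name as a fall rests on that library. The low late values do not rest on it alone. At 8 h scaled SWI4 was 22.2, against between 55.5 and 76.2 at 4.75 to 6 h. The PCL1 call was lost without the 2 h library (adjusted p = 0.148), and the MBP1 call without the 7.5 h library (adjusted p = 0.0552). With 3 degrees of freedom MBP1 (adjusted p = 0.0578) and SWI6 (adjusted p = 0.0822) did not pass.

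CLN1 and PCL1 had higher values, and CLN3 a lower one, at 2 h than at 0 h. Each time is a single library, so no test was made, and folds were read where either library had 10 FPKM or more. CLN1 had 24.7 FPKM (bounds 20.3 to 29.1) at 2 h, against 4.44 FPKM (bounds 2.50 to 6.37) at 0 h. PCL1 had 15.2 FPKM (bounds 9.92 to 20.4) at 2 h, against 3.34 FPKM (bounds 0.815 to 5.86) at 0 h. These were the only 2 of the 6 members with 10 FPKM that were at least 2-fold higher on the scaled values, with log2 differences of 1.88 and 1.55, and none was 2-fold lower. Among 3968 genes, 14.5% were at least 2-fold higher and 16.3% at least 2-fold lower. On deposited FPKM SWI4 (1.00) and SWI6 (1.03) also reached 2-fold, which made 4 of the 6 higher, against 25.1% of all genes higher and 9.45% lower. CLN3 had 31.2 FPKM at 2 h, against 45.6 FPKM at 0 h, a scaled log2 difference of -0.95 with bounds apart. SWI4, SWI6 and MBP1 had higher deposited values at 2 h with bounds apart, at scaled log2 differences of 0.61, 0.62 and 0.40. The bounds of CLN2, PCL2 and WHI5 overlapped between the 2 libraries.

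CLN3, the cyclin that acts first at Start, fell within the first hour after the copper addition. It had 8.52, 9.76, 5.53 and 5.99 FPKM at 2.25, 2.5, 2.75 and 3 h, against 31.2 FPKM at 2 h. All 4 values lie below the lower bound of the 2 h library (26.4 FPKM), as do those of the other 17 later libraries. The change was -2.02 ± 0.47 (SE, limma adjusted p = 0.0303), and together with CLN1 it made 2 of 9 genes called lower at this step, against 0.29% of all genes tested. No member was called higher, against 1.05% of all genes. The CLN3 call was lost on deposited FPKM (-1.96, adjusted p = 0.170), without the 2.75 h library (adjusted p = 0.0778) and without the 3 h library (adjusted p = 0.0675), and with a pseudocount of 0.1 (adjusted p = 0.0524). The 2 h side of this contrast is a single library.

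Later, CLN3 had a second, lower crest on deposited FPKM, without a call for its rise. On scaled values no crest stood out, with 6.92 to 11.07 at 4.75 to 6 h and 4.50 to 10.52 at 6.5 to 10 h. The deposited values of CLN3 are given next. It had between 6.30 and 15.8 FPKM at 4.75 to 6 h (median 12.1), against between 3.74 and 13.9 FPKM at 3.25 to 4.5 h (median 5.33). These deposited windows overlap through the 4.25 and 4.5 h libraries. The change passed neither on scaled values (0.68 ± 0.24, limma adjusted p = 0.156) nor on deposited FPKM (0.82, adjusted p = 0.147). At 6.5 to 10 h it had between 2.03 and 6.41 FPKM (median 4.31). Against 4.75 to 6 h this was -0.22 ± 0.25 on scaled values (limma adjusted p = 0.519) and -1.26 on deposited FPKM (adjusted p = 0.00230), so whether CLN3 was lower late depends on the scale.

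WHI5, the inhibitor that Cln3 is known to counteract, moved the other way. It had 3.00, 9.10, 3.22 and 15.7 FPKM at 2.25, 2.5, 2.75 and 3 h, against 2.15 FPKM at 2 h. Of these, only the 2.5 and 3 h libraries have bounds above those of 2 h, and the change of 1.12 ± 0.50 was not called (limma adjusted p = 0.424). It then had between 10.97 and 23.4 FPKM at 3.25 to 4.5 h (median 18.9), against between 3.00 and 15.7 FPKM at 2.25 to 3 h (median 6.16). The windows overlap through the 3 h library. This change, 1.25 ± 0.29 (SE, limma adjusted p = 0.0437), was the only call among the 9 genes at this step, against 0.351% of all genes called higher and 0.427% called lower. It is close to the threshold: it was lost on deposited FPKM (1.33, adjusted p = 0.196) and without any single library from 2.25 to 5.75 h other than the 3 h one, with adjusted p between 0.0563 and 0.200. With a pseudocount of 5 it was 0.86, and without limma's trend its adjusted p was 0.0503.

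WHI5 did not rise steadily. Its scaled values at 4.75 to 6 h, 6.92 to 10.3, lay below those of 3.25 to 4.5 h, 11.03 to 20.97, while the deposited ones overlap. That change of -0.70 ± 0.26 was not called (limma adjusted p = 0.167). At 6.5 to 10 h the scaled WHI5 values lay between 19.6 and 24.3, against between 6.92 and 10.3 at 4.75 to 6 h, with no overlap. The change was 1.27 ± 0.27 (SE, limma adjusted p = 0.000998). On deposited FPKM the same windows overlap, with between 6.14 and 18.8 FPKM at 6.5 to 10 h and between 5.44 and 17.4 FPKM at 4.75 to 6 h, and the change was 0.14 (adjusted p = 0.768). WHI5 thus kept its FPKM while the median gene's FPKM came down. Against 2.25 to 3 h, WHI5 was higher at 6.5 to 10 h by 1.82 ± 0.30 (limma adjusted p = 7.2e-05), and by 0.91 on deposited FPKM (adjusted p = 0.0715).

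SWI4 had the largest mean FPKM of the 9 genes in each of the 4 windows after 2 h. It had 57.9, 82.4, 91.3 and 88.4 FPKM at 2.25, 2.5, 2.75 and 3 h, against 21.8 FPKM (bounds 18.9 to 24.7) at 2 h. The bounds of all 4 libraries lie above those of 2 h, as do those of all 12 libraries from 3.25 to 6 h. The change of 1.73 ± 0.63 nevertheless did not pass across all genes (limma adjusted p = 0.254, and 0.299 on deposited FPKM), with a single library on the 2 h side. Its level then held: against the window before, the change was -0.21 ± 0.37 at 3.25 to 4.5 h (limma adjusted p = 0.903) and 0.11 ± 0.33 at 4.75 to 6 h (adjusted p = 0.900).

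SWI4 had 46.6, 41.5, 15.0, 15.3 and 11.95 FPKM at 6.5, 7, 7.5, 8 and 10 h, all below the lowest value of the 4.75 to 6 h libraries, 51.3 FPKM. On deposited FPKM this was a call (-1.90, limma adjusted p = 0.000111), and by quantile normalisation too (-1.22, adjusted p = 0.00350). On scaled values, 70.8 and 59.3 at 6.5 and 7.5 h stood among those of 4.75 to 6 h (55.5 to 76.2), 78.4 at 7 h lay above them, and only 22.2 and 12.5 at 8 and 10 h lay below. There the change was -0.73 ± 0.34 and was not called (limma adjusted p = 0.0956). The lowest values after 2 h were thus at 8 and 10 h on scaled values, and at 7.5, 8 and 10 h on deposited FPKM.

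SWI6, the subunit that SBF and MBF share, had its highest value, 47.2 FPKM, at 2 h, against 22.6 FPKM at 0 h. In the 2.25 to 3 h libraries it had 39.9 to 43.3 FPKM, and the bounds of none of the 4 were apart from those of 2 h. At 4.75 to 6 h it had between 12.7 and 31.4 FPKM (median 22.6), against between 28.4 and 46.4 FPKM at 3.25 to 4.5 h (median 35.98). The scaled values did not overlap (14.4 to 17.4 against 22.8 to 39.7), but the change of -0.85 ± 0.24 was not called (limma adjusted p = 0.0802). At 6.5 to 10 h the scaled values were higher by 0.97 ± 0.26 (limma adjusted p = 0.00471), just short of the size of 1, and the deposited ones lower by 0.19 (adjusted p = 0.564). The scaled values were 39.25, 51.09 and 51.15 at 6.5, 7 and 7.5 h, but 20.4 and 17.1 at 8 and 10 h. The 10 h value lies within the range of 4.75 to 6 h.

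MBP1, the DNA-binding subunit of MBF, had 16.2 FPKM at 2 h, 9.53 to 13.9 FPKM at 2.25 to 3 h and 12.1 to 19.4 FPKM at 3.25 to 4.5 h. None of its changes up to 6 h was called, with adjusted p of 0.817, 0.703 and 0.549. In the last window the scaled values were between 13.2 and 51.8, against between 8.27 and 13.9 at 4.75 to 6 h, a change of 1.32 ± 0.27 (SE, limma adjusted p = 0.000559). The deposited values barely differed, with 12.6 to 21.2 FPKM at 6.5 to 10 h and 10.9 to 19.4 FPKM at 4.75 to 6 h (0.18, adjusted p = 0.499).

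CLN1 and CLN2, the paired cyclins that carry out Start, went apart. CLN1 had 8.90, 2.90, 2.33 and 1.71 FPKM at 2.25, 2.5, 2.75 and 3 h, against 24.7 FPKM (lower bound 20.3) at 2 h. At 0 h it had 4.44 FPKM (bounds 2.50 to 6.37), so the high value is that of the single 2 h library. CLN1 fell, with a change of -2.59 ± 0.64 (SE, limma adjusted p = 0.0476). In the 17 libraries after 3 h it had at most 3.14 FPKM, and the bounds of all 21 libraries after 2 h lie below those of 2 h. The call is near the threshold: it was lost on deposited FPKM (-2.57, adjusted p = 0.0909), with a pseudocount of 0.1 (adjusted p = 0.177), and without any single library from 2.5 to 6 h or the 7 or 7.5 h one (adjusted p between 0.0515 and 0.114). Over all its alternatives adjusted p lay between 0.00149 and 0.177, with CLN1 lower at 2.25 to 3 h in each.

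CLN2 had 5.66, 3.49, 5.94 and 5.57 FPKM at 2.25, 2.5, 2.75 and 3 h, against 6.14 FPKM (bounds 3.93 to 8.34) at 2 h, with overlapping bounds throughout (-0.29 ± 0.61, limma adjusted p = 0.968). It then had a crest between 4.75 and 6 h. At 4.75 to 6 h CLN2 had 7.07, 10.8, 9.47, 12.8, 7.37 and 5.36 FPKM, against between 2.74 and 4.47 FPKM at 3.25 to 4.5 h (median 2.91). The windows do not overlap on either scale. The change was 0.98 ± 0.32 on scaled values and not called (limma adjusted p = 0.118), and 1.14 on deposited FPKM, where it was called (adjusted p = 0.0364). It was the 1 call among the 9 genes on that scale, against 3.06% of all genes called higher and 0.152% called lower. On scaled values limma called 0 of the 9 genes at this step, against 1.04% of all genes called higher and 0.503% called lower. In all, 1115 genes had an unadjusted p under 0.05 there.

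At 6.5 to 10 h CLN2 fell, with 3.54, 2.56, 0.818, 0.225 and 1.05 FPKM, each below all 6 values of 4.75 to 6 h. The change was -1.15 ± 0.33 (SE, limma adjusted p = 0.00877) on scaled values and -2.01 on deposited FPKM (adjusted p = 3.46e-05). By quantile normalisation it was -0.83 (adjusted p = 0.0632), and without the 8 h or the 10 h library it was -0.81 or -0.98, under the size of 1. The scaled windows overlap through 5.38 at 6.5 h and 4.84 at 7 h.

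PCL1 and PCL2 encode cyclins of the kinase Pho85 that act beside CLN1 and CLN2 in G1. PCL1 had 4.41, 4.37, 3.34 and 6.76 FPKM at 2.25, 2.5, 2.75 and 3 h, against 15.2 FPKM at 2 h, all below the 2 h value. At 0 h PCL1 had 3.34 FPKM. Its change of -1.59 ± 0.57 was not called (limma adjusted p = 0.246), and the bounds of 3 of the 4 libraries lie below those of 2 h. In no later contrast did PCL1 pass on scaled values.

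PCL2 instead had a crest at 2.75 and 3 h and was near the limit of detection late. It had 5.18, 6.54, 18.5 and 19.5 FPKM at 2.25, 2.5, 2.75 and 3 h, against 8.63 FPKM (bounds 4.95 to 12.3) at 2 h, so the last 2 have bounds above those of 2 h. The window as a whole did not pass (0.20 ± 0.58, limma adjusted p = 0.976). PCL2 was down to 1.24, 0.846, 1.08, 0.446 and 1.25 FPKM at 6.5, 7, 7.5, 8 and 10 h, with 0 as the lower bound in each. Against 2.25 to 3 h this was a change of -1.95 ± 0.35 (SE, limma adjusted p = 0.000143), called in all 29 alternatives. Against 4.75 to 6 h it was -1.01 ± 0.31 (adjusted p = 0.0142), a call that lies at the size of 1. It was lost without the 5, 6, 7, 8 or 10 h library (-0.82 to -0.99) and by quantile normalisation (-0.59, adjusted p = 0.178).

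In 6.5 to 10 h against 4.75 to 6 h, then, 2 of the 9 genes were called higher on scaled values (WHI5 and MBP1) and 2 lower (CLN2 and PCL2). Of all genes 15.8% were called higher and 17.3% lower. In 6.5 to 10 h against 2.25 to 3 h, WHI5 and MBP1 (1.33 ± 0.29, limma adjusted p = 0.00100) were called higher and PCL2 lower, against 19.5% and 22.1% of all genes. On deposited FPKM the split changed. CLN2, CLN3, PCL2 and SWI4 were then lower in the first of these contrasts, CLN1, CLN2, PCL2, SWI4 and SWI6 in the second, and none of the 9 was higher. On that scale 43.8% of all genes were called lower and 3.99% higher in the first contrast, and 40.3% lower and 10.1% higher in the second, so 4 and 5 of 9 lower are near the share of all genes. Both contrasts share the 5 late libraries. With the last window begun at 6 h, the changes of WHI5 (0.95), CLN2 (-0.94) and PCL2 (-0.82) against 4.75 to 6 h came under the size of 1, as they did with a pseudocount of 5 (0.99, -0.58 and -0.47).

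**Figure D3:**
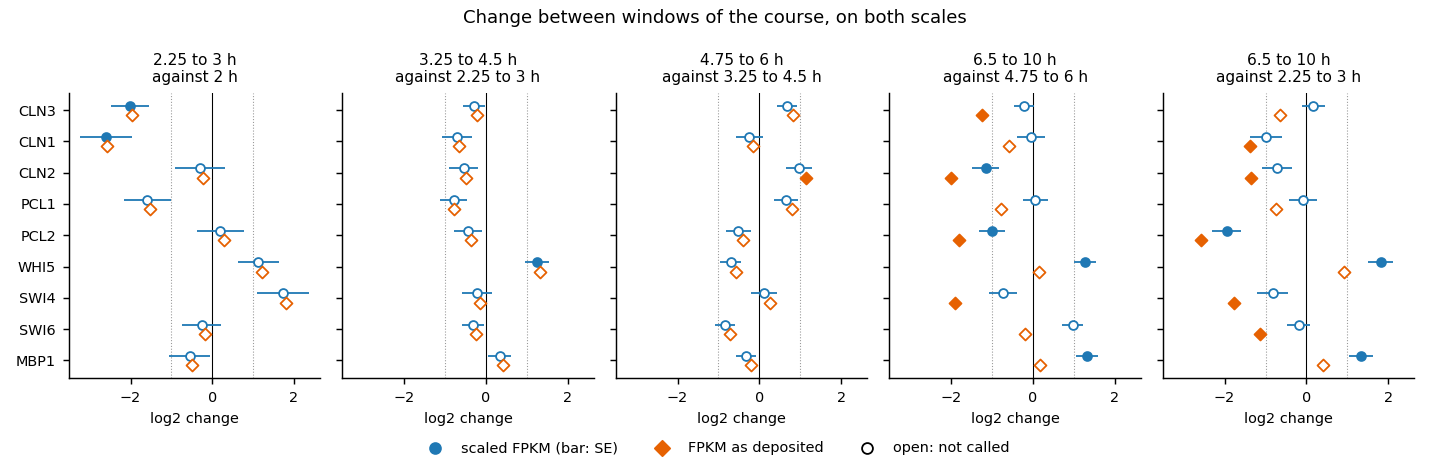
Change of each gene between windows, on the log2(FPKM + 1) scale, for scaled FPKM (circles, with the SE of limma as bars) and FPKM as deposited (diamonds); filled symbols passed the threshold, and dotted lines mark a size of 1. The 2 scales lie close together up to 6 h and apart in the last window, where WHI5 stands at 1.27 scaled and 0.14 deposited.

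Ratios of 2 genes within a library do not depend on the scale of libraries, apart from the 1 FPKM added to each. The log2 ratio of SWI4 to MBP1, the 2 DNA-binding subunits, was 0.52 ± 0.66 at 6.5 to 10 h (SD, n = 5), against 2.15 ± 0.33 at 3.25 to 4.5 h (SD, n = 6). The difference of -1.63 had an exact two-sided permutation p of 0.00216, the smallest that 5 against 6 libraries allow (adjusted p = 0.00866 over 8 ratio comparisons). It was 1.49, 0.94, 0.18, 0.08 and -0.07 at 6.5, 7, 7.5, 8 and 10 h, against 0.41 at 2 h and 0.19 at 0 h. The 2 subunits were thus again at near equal FPKM from 7.5 h on, as in the first 2 libraries.

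The log2 ratio of PCL1 to PCL2 turned over. It was 0.77 ± 0.65 at 6.5 to 10 h (SD, n = 5), against -1.47 ± 0.72 at 3.25 to 4.5 h (SD, n = 6), a difference of 2.24 (exact permutation p = 0.00216, adjusted p = 0.00866). The 2 windows do not overlap, with -0.37 as the lowest late value, in the 7.5 h library, and -0.51 as the highest early one. Both genes were low in FPKM late, so the ratio rests on few fragments.

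The log2 ratio of WHI5 to CLN3 was -3.92 at 0 h and -3.35 at 2 h. At 2.25, 2.5, 2.75 and 3 h it was -1.25, -0.09, -0.63 and 1.25. Of these, only the 3 h library had more WHI5 than CLN3 RNA by FPKM. The ratio was 1.37 ± 0.72 at 3.25 to 4.5 h (SD, n = 6), against -0.18 ± 1.07 at 2.25 to 3 h (SD, n = 4). This difference of 1.55 did not pass (exact permutation p = 0.0333, adjusted p = 0.0857). It came back to between -0.36 and 0.42 at 4.75 to 6 h and stood between 0.98 and 1.90 at 6.5 to 10 h. At 6.5 to 10 h against 3.25 to 4.5 h its difference was 0.01 (exact permutation, adjusted p = 0.983). The ratio of CLN1 to CLN2 passed in neither comparison (adjusted p = 0.923 in both), though it was -2.54 at 5.25 h, against 1.85 at 2 h. In 3.25 to 4.5 h against 2.25 to 3 h the differences of -0.55 for SWI4 to MBP1 and -0.41 for PCL1 to PCL2 did not pass either (adjusted p = 0.0857 and 0.686).

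**Figure D4:**
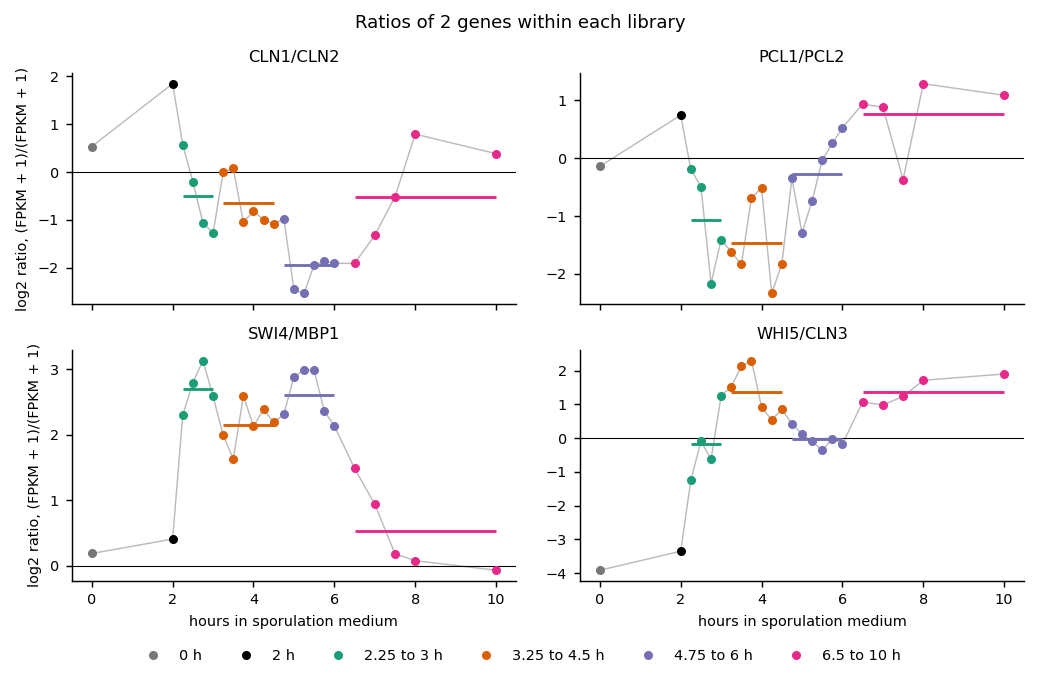
Log2 ratio of (FPKM + 1) of 2 genes within each library against hours in sporulation medium, 1 point per library; horizontal bars are means of the 4 windows and the line at 0 marks equal FPKM. The ratio of SWI4 to MBP1 is -0.07 at 10 h, against 3.13 at 2.75 h, and that of WHI5 to CLN3 is 1.25 at 3 h, against -3.35 at 2 h.

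Known targets and partners were read from lists whose members were chosen from general knowledge of the pathway. Of 25 MBF targets, such as the replication genes, TOS4 had the largest change in 2.25 to 3 h against 2 h (3.35). TOS4 encodes a DNA-binding protein, and the 2 h side is a single library. The median change of the list, a description without a test of its own, was 1.85, against -0.05 over all genes tested. Its median scaled FPKM was 45.9 at 2.75 h, against 6.31 at 2 h. In 6.5 to 10 h against 2.25 to 3 h, 18 of the 25 were called lower and 1 higher, against 22.1% and 19.5% of all genes. The 1 higher was CLB6, which like CLB5 is also among the B-type cyclins below, so these lists overlap. The median of the MBF list was -2.49, against -0.16 over all genes. The deepest of these falls were TOS4 (-3.47), POL30 (-3.38), the sliding clamp of replication, RFA1 (-3.23), a single-strand binding protein, and SMC3 (-3.19), a cohesin subunit. POL30 shares 75.2% of its length with another row. On deposited FPKM 21 of the 25 were lower and 1 higher, against 40.3% and 10.1% of all genes.

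The 19 SBF targets did not move together. In 2.25 to 3 h against 2 h their median change was -0.20, against -0.05 over all genes tested, while SWI4 had its high values. Their median scaled FPKM was 16.6 at 3 h, against 13.9 at 2 h. In 6.5 to 10 h against 2.25 to 3 h, 8 were called lower, led by the bud neck kinase GIN4 (-3.27) and the cell wall enzyme CRH1 (-2.35), and 4 higher, led by the cell wall gene KRE6 (2.82) and the polarity gene GIC1 (2.44). Of all genes 22.1% were called lower and 19.5% higher, so the 4 of 19 higher are near that share. The list's median was 0.03, against -0.16 over all genes. On deposited FPKM 9 of 19 were lower, near the 40.3% of all genes, and 1 higher, KRE6 (1.86, limma adjusted p = 0.00591), against 10.1%. In 2 h against 0 h, 3 of 12 SBF targets with 10 FPKM were at least 2-fold higher and 0 lower on scaled values, against 14.5% and 16.3% of all genes.

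Of the 6 B-type cyclins, which run S phase and the divisions, 4 were higher in 6.5 to 10 h against 2.25 to 3 h on both scales, against 19.5% of all genes scaled and 10.1% deposited. They were CLB1 (5.51), CLB4 (4.22), CLB3 (3.86) and CLB6 (3.30, limma adjusted p = 0.0115). CLB2 averaged 3.46 FPKM at 6.5 to 10 h and 3.05 FPKM at 2.25 to 3 h, and CLB5 averaged 60.3 FPKM at 6.5 to 10 h and 40.8 FPKM at 2.25 to 3 h; neither passed.

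**Figure D5:**
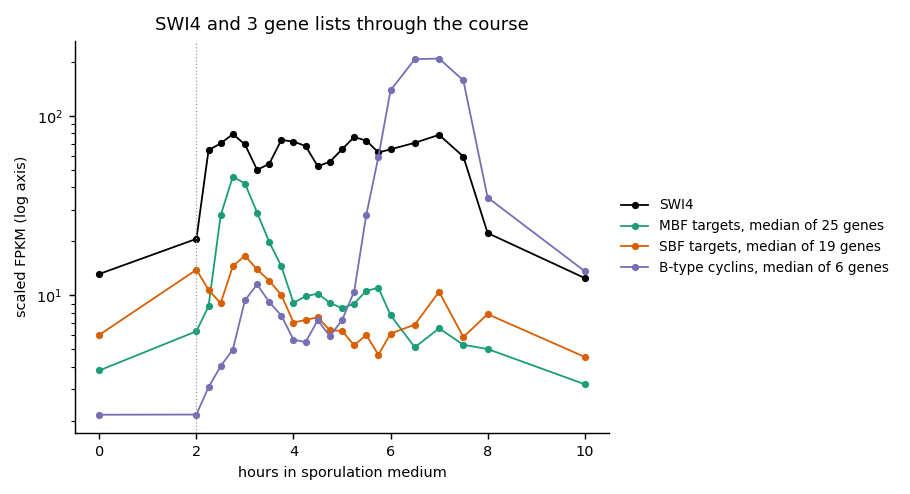
Scaled FPKM of SWI4 and the median scaled FPKM of the MBF targets, the SBF targets and the B-type cyclins against hours in sporulation medium, on a log axis; points are libraries and the dotted line marks the copper addition. The MBF targets reach a median of 45.9 at 2.75 h and the B-type cyclins 209 at 7 h, while the SBF targets stay at or below 16.6.

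Among the 19 partners and controllers of CLN3 and SWI4, 1 was called lower in 3.25 to 4.5 h against 2.25 to 3 h and 0 higher. Of all genes 0.427% were called lower and 0.351% higher at this step. The 1 call was MSA2, a coactivator of SBF and MBF (-2.50, limma adjusted p = 0.0120, and 0.0613 on deposited FPKM). In 6.5 to 10 h against 2.25 to 3 h, 6 were lower, led by MSA2 (-3.63), the Cdc28 partner CKS1 (-2.84), MSA1 (-2.69) and the repressor YOX1 (-2.09). Then 4 were higher, CAK1 (1.80), the kinase that activates Cdc28, the MBF corepressor NRM1 (1.47), and WHI4 (1.23) and WHI3 (1.07), RNA-binding proteins that hold CLN3 back. With 22.1% of all genes called lower and 19.5% higher, 6 and 4 of 19 are not far from the share of all genes. On deposited FPKM 9 of 19 were lower and 0 higher, against 40.3% and 10.1% of all genes. WHI3, whose protein binds CLN3 mRNA, averaged 130.5 FPKM at 3.25 to 4.5 h and 67.3 FPKM at 2.25 to 3 h, with no call at that step.

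Of the 7 CDK inhibitors and cyclin destruction genes, GRR1, the ubiquitin ligase subunit that targets Cln1 and Cln2, was higher in 6.5 to 10 h against 2.25 to 3 h on both scales (3.34 scaled, limma adjusted p = 5.46e-05; 2.38 deposited). GRR1 averaged 70.6 FPKM at 6.5 to 10 h, against 11.01 FPKM at 2.25 to 3 h. FAR1, an inhibitor of the G1 cyclin kinase, was higher by 1.34 on scaled values and by 0.58 on deposited FPKM, where it was not called. SIC1, the inhibitor of B-type cyclin kinase, was lower (-1.71, limma adjusted p = 0.000980). On deposited FPKM 1 of the 7 was higher (GRR1) and 2 lower (SIC1 and SKP1), against 10.1% and 40.3% of all genes. On scaled values 2 of the 7 were higher and 1 lower, against 19.5% and 22.1% of all genes. Of Pho85 and its 9 other partners, 3 were higher (PHO81, CLG1 and PCL5) and 3 lower (PCL8, PCL10 and PHO85 itself, -1.15), against 19.5% and 22.1% of all genes. On deposited FPKM 1 was higher and 5 lower, against 10.1% and 40.3%, so on neither scale do these 10 genes depart far from all genes.

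Each gene's nearest neighbours in time were sought among genes with a standard name that averaged 10 FPKM or more, by Pearson's r of scaled log2 values over the 23 libraries. These libraries share the same course and scaling, so r is a description. SWI4 was closest to PIG1 (0.94), MLH3 (0.92) and LUC7 (0.91). MBP1 was closest to NAB6 (0.93), RHO1 (0.92) and CCC2 (0.91), and WHI5 to WHI3 (0.90), CRP1 (0.86) and SRS2 (0.83). PCL2 was closest to CTF18, MCM3 and ASF1, each at 0.87, of which CTF18 is also on the MBF target list. CLN3 was closest to FIT2 (0.87), TDH1 (0.79) and ARG4 (0.79), and CLN1 to HSP150 (0.85), LEU4 (0.84) and SPG1 (0.82).
SWI6 was closest to ERG12 (0.85), TIP41 (0.81) and ILV6 (0.80), and CLN2 to BRO1 (0.81), ASK10 (0.80) and SEC5 (0.78). PCL1 had the loosest neighbours of the 9 genes, PAL2 (0.62), FAD1 (0.61) and PEX34 (0.60). Among the 9 genes themselves no pair came above 0.53 (WHI5 with MBP1), and the lowest was CLN1 with WHI5 at -0.68. The paralogous pairs had r of 0.05 (CLN1 with CLN2) and -0.05 (PCL1 with PCL2).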

How the data were processed

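Per the labels' protocols, libraries of total RNA were primed with random hexamers (NuGEN Ovation). Per the file headers, each library's deposited table holds FPKM and confidence bounds of every gene. The submitters' processing notes name Bowtie, Cufflinks 2.2.1, R64 and sacCer3, and other settings are not stated in the sources. After leaving out 11 rows without an estimate and 254 rows that name no gene, 6867 were used. Of these, 6020 matched RefSeq identifiers, 99.09% at the same position. Fragments behind a value were read from the bounds, taken as 2 standard errors.

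Each library was divided by its median-of-ratios size factor (over 5046 genes above 0 in every library), which differs from the deposited scale. Values were analysed as log2(scaled FPKM + 1) with limma 3.58.1 in R 4.3.3 (eBayes with trend), by a natural cubic spline (4 degrees of freedom) and by 1 model of window means, both over the 22 libraries from 2 to 10 h. Tests are two-sided, with Benjamini-Hochberg adjustment over the 6560 genes. Residuals of successive libraries had a median correlation of 0.059 (spline) and 0.151 (windows). Data with independent libraries were simulated for 3.25 to 4.5 h against 2.25 to 3 h, with 200 of 6560 genes changed. The window test recovered 10.5%, 70% and 89% of log2 changes of 1, 2 and 3, with 0, 11 and 12 false calls. The spline test recovered 0%, 44.5% and 76% of the same changes, with 0, 6 and 6 false calls. Recovery against the single 2 h library was not measured. Ratios used exact permutation, by listing every arrangement of the libraries (Python 3.11.15 with NumPy 2.4.6). Alternatives were FPKM as deposited, quantile normalisation, other pseudocounts, filters, splines and windows, no trend, and leaving out each library.

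The 9 genes, the 7 lists and the tests were chosen with earlier results of these data known. Named genes are the 9, the IME1, IME2, IME4 and NDT80 markers, up to 4 called genes per list, direction and contrast, every gene of lists of 6 or fewer, and the 3 closest genes by r. The WHI3 values at 3.25 to 4.5 h were chosen after they were seen. Protein sequences were not used here, and 1 motif and the window upstream of SWI4 are not reported here.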

Additional observations from a re-analysis of the deposited data

How the results depend on the processing

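The called numbers of genes over the whole course and in both contrasts of 6.5 to 10 h stayed within 1.5 times of the values above under all alternatives, though their split into higher and lower did not: in 6.5 to 10 h against 4.75 to 6 h it was 1039 higher and 1136 lower on scaled values and 262 higher and 2875 lower on deposited FPKM. In 6.5 to 10 h against 2.25 to 3 h it was 1280 higher and 1453 lower scaled, and 661 higher and 2645 lower deposited. In 4.75 to 6 h against 3.25 to 4.5 h it was 68 higher and 33 lower scaled, and 201 higher and 10 lower deposited. In 3.25 to 4.5 h against 2.25 to 3 h it was 23 higher and 28 lower scaled, and 6 higher and 4 lower deposited. Over the course it was 2497 rises and 2620 falls scaled, and 2038 and 3410 deposited.
The count of 88 genes in 2.25 to 3 h against 2 h was 141 with a pseudocount of 5, and 64 to 251 leaving out 1 library. The count of 51 in 3.25 to 4.5 h against 2.25 to 3 h was 10 on deposited FPKM, 104 by quantile normalisation, and 0 to 103 leaving out 1 library. The count of 101 in 4.75 to 6 h against 3.25 to 4.5 h was 211, 171 and, with a pseudocount of 5, 54, and 29 to 195 leaving out 1 library.
Of the 9 genes, the 2 called in 2.25 to 3 h against 2 h were 0 on deposited FPKM and with a pseudocount of 0.1, 1 with a minimum mean of 5 FPKM, and 0 to 2 leaving out 1 library. The minimum of 5 FPKM left CLN1, with a mean of 3.025 FPKM, untested. The 1 gene called in 3.25 to 4.5 h against 2.25 to 3 h was 0 on deposited FPKM, with a pseudocount of 5 and with no trend. It was 0 to 1 leaving out 1 library. The 0 in 4.75 to 6 h against 3.25 to 4.5 h was 1 on deposited FPKM. The 4 in 6.5 to 10 h against 4.75 to 6 h were 1 with a pseudocount of 5 and with the last window from 6 h, and the 3 against 2.25 to 3 h were 5 on deposited FPKM.
The difference of CLN1 to CLN2 in 6.5 to 10 h against 3.25 to 4.5 h, 0.13, was -0.0222 with a pseudocount of 0.1 and -0.20 to 0.48 leaving out 1 library. In 3.25 to 4.5 h against 2.25 to 3 h, -0.15, it was -0.42 to 0.20. That of WHI5 to CLN3, 0.01 late, was -0.0645 with a pseudocount of 5 and -0.16 to 0.19 leaving out 1 library; its early one was 1.20 to 2.03 and passed in 1 case. SWI4 over the course was -2.73 to 1.34. The PCL1 to PCL2 and SWI4 to MBP1 differences late kept their direction and side of the threshold under all 13 alternatives (2.06 to 2.52 and -1.87 to -1.48 leaving out 1 library). The cause of each change was not tested. No paired analysis was possible because each time has 1 library. Depth limits CLN1, CLN2, PCL1 and PCL2 late, where values rest on as few as 1 fragment.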
